A study of Mus musculus with 2 samples.

Results

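The 10 mouse genes described here present peptides on major histocompatibility complex (MHC) class I molecules or switch on the genes that do. They were chosen by name as B2m, H2-K1, H2-D1, H2-T23, Tap1, Tap2, Tapbp, Psmb8, Psmb9 and Nlrc5, out of 30457 genes listed in either of 2 single-cell RNA-seq tables, and all 10 were listed in both. The spleen cells were those of female C57BL/6J mice that carried Lewis lung carcinoma (a tumour line that grows in this strain) under the skin. Tumour cells were injected at 10 weeks of age, anti-CD4 antibody followed at 200 μg on day 5 and again on day 9, and spleens were taken on day 12. The suspension, pooled from 3 spleens, was cleared of red cells with ACK buffer, frozen and thawed. In all 2000 cells were loaded on a BD Rhapsody cartridge, where single cells share nanowells with barcoded beads. The beads were then divided between TAS-Seq, which tails the cDNA with terminal transferase under a chain-terminating nucleotide, and the manufacturer's BD WTA kit, which primes at random. The groups thus share animals, treatment, cell preparation and cartridge, but hold different cells and differ in how beads were handled from the division on. No untreated or tumour-free mice are part of the data, and the pooled animals cannot be told apart.

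Class I molecules sit on almost every nucleated cell and show peptides from inside the cell to CD8 T cells. A heavy chain (H2-K1 and H2-D1 for the classical molecules, H2-T23 for the non-classical Qa-1) pairs with beta-2-microglobulin, the product of B2m. Peptides are cut by the proteasome, in which interferon-induced subunits encoded by Psmb8 and Psmb9 replace constitutive ones, are pumped into the endoplasmic reticulum by the Tap1 and Tap2 transporter, and are loaded with the help of tapasin, encoded by Tapbp. Nlrc5 is the transactivator that acts at class I promoters, through a promoter module that includes factors of the RFX family, and it is known for high levels in lymphocytes. NK cells read class I on other cells through inhibitory receptors.

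On build GRCm38, 8 of the 10 genes lie on chromosome 17, in or near the MHC. By GENCODE they span 17:33996017-34000347 (H2-K1, minus strand), 17:35262730-35267499 (H2-D1, plus), 17:36029773-36032855 (H2-T23, minus), 17:34187553-34197225 (Tap1, plus), 17:34203527-34216321 (Tap2, plus), 17:33915899-33929292 (Tapbp, plus), 17:34197721-34201454 (Psmb8, plus) and 17:34181987-34187764 (Psmb9, minus). B2m lies at 2:122147686-122153083 and Nlrc5 at 8:94434356-94527272, both on the plus strand. All 10 are protein-coding. Reads of the heavy chains can be hard to place, since 23.4% of the 31-base words of the longest H2-K1 transcript, 27.5% of those of H2-D1 and 48.4% of those of H2-T23 also occur in transcripts of other genes. Over the last 400 bases, nearest to the end captured by the beads, the shares were 9.73%, 31.1% and 62.7%. For B2m, Psmb8, Psmb9 and Nlrc5 the share was 0, and for Tap1, Tap2 and Tapbp it was at most 2.86%. The levels of the 3 heavy chains are therefore uncertain in a way those of the other members are not.

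Promoters are shown for the light chain, for the 2 classical heavy chains, whose windows hold the same rare motifs, and for Tap1, whose window is read in the other direction by Psmb9. The RefSeq promoter table (GRCm38.p6) held 8 of the members, with Tap2 and Nlrc5 not matched. Each line gives the 250 bases before the start site, 5′ to 3′ on the gene's strand, from chr2:122147437-122147686, chr17:34000348-34000597 (minus strand; the first of 2 listed start sites), chr17:35262844-35263093 and chr17:34187306-34187555. Capitals mark matches on either strand to 5 motifs that do not overlap there. In the H2-K1 line the first run of capitals is the kappa-B site known from class I genes and the second the interferon consensus sequence of these genes. The first run in the B2m line matches an interferon-response core, GAAA and GAAA with any 2 bases between. The others are TGACG, the core of a cyclic AMP response element, and CCAAT, each in either orientation.
B2m: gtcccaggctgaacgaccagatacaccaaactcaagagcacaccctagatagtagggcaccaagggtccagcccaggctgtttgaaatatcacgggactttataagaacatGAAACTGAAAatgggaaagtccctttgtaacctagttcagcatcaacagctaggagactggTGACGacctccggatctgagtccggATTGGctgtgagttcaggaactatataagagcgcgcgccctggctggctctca
H2-K1: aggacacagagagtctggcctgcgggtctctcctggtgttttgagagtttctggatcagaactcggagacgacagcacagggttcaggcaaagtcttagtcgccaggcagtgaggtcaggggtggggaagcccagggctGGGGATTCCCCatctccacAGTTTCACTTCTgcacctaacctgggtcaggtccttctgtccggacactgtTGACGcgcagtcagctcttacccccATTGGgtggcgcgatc
H2-D1: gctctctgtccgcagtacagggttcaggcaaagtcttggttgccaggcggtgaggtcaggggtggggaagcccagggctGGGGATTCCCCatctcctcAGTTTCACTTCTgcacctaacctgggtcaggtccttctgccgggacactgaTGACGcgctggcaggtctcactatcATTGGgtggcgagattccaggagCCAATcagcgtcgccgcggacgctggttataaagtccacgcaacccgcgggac
Tap1: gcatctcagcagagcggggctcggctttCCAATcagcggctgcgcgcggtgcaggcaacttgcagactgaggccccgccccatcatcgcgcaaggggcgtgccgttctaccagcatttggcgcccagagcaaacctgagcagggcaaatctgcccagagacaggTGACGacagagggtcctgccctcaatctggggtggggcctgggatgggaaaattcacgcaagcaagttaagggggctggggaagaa

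The kappa-B letters occurred in 10 of 32851 promoter windows of the same length (0.0304%) and the interferon consensus letters in 9 (0.0274%), and among the 8 members both were in the H2-K1 and H2-D1 windows. The H2-K1 and H2-D1 windows aligned over 177 positions with 91.0% identity. The interferon-response core was in B2m and H2-T23, against 2.98% of all windows. TGACG was in 5 of the 8 members (17.8% of all windows) and CCAAT in 7 (33.8%), Psmb8 being the member without any of the 5 motifs. The Tap1 and Psmb9 windows share 225 bases on opposite strands. Their TGACG match is the same site, as is their CCAAT match, so each site is counted for both genes above. These matches are descriptions of letters only.

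TAS-Seq gave 736 barcodes and 38656790 reads, and BD WTA gave 716 barcodes and 31608259 reads, with 0 barcodes in both. After filters 732 and 708 cells remained. At 20000 reads per cell, markers placed 395 TAS-Seq and 328 BD WTA cells as B-like, 117 and 101 as CD8 T-like, 51 and 58 as CD4 T-like, 20 and 20 as NK-like, and 22 and 20 as myeloid-like, a mixed class of neutrophil, monocyte, macrophage and dendritic markers. No member was a marker. The T class had 37 of 251 and 75 of 243 cells at its minimum of 2 markers. Each method has 1 library and cells are not replicates, so no test was run. Levels are reads summed over the cells of a class per 1000000 reads of that class (CPM), with 95% exact Poisson intervals. Reads were counted without molecular identifiers, so the intervals cover counting error only and are too narrow. A difference was called at 2-fold or more, and for classes only when it had the same direction in both libraries, which hold different cells of 1 pool.

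Together the 10 genes took 0.869% of TAS-Seq reads and 0.971% of BD WTA reads over all filtered cells. B-like cells had the lowest share in both libraries (0.726% and 0.824%), also under each alternative that gave all 5 classes. NK-like cells had the highest (1.34% and 1.22%), in TAS-Seq under each of 8 such alternatives and in BD WTA under 5 of 7. CD8 T-like cells had 0.957% and 1.06%, CD4 T-like cells 0.970% and 1.19%, and myeloid-like cells 1.16% and 1.04%. In BD WTA the NK-like and CD4 T-like shares were close, and the median over cells was higher in CD4 T-like (1.22%) than in NK-like cells (1.15%). The order of the other 3 classes differed between the libraries. Single cells overlapped widely. The interquartile range over B-like cells was 0.552% to 0.878% in TAS-Seq and 0.608% to 0.971% in BD WTA, and over NK-like cells 1.17% to 1.51% and 0.909% to 1.34%. In TAS-Seq every one of the 20 NK-like cells was above the third quartile of the B-like cells, the lowest at 0.955%, whereas in BD WTA the lowest NK-like cell had 0.556%. Reads of B2m, H2-K1 and H2-D1 made up 82.2% to 92.1% of the members' reads in each class, so this sum mostly follows those 3 genes.

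**Figure D1:**
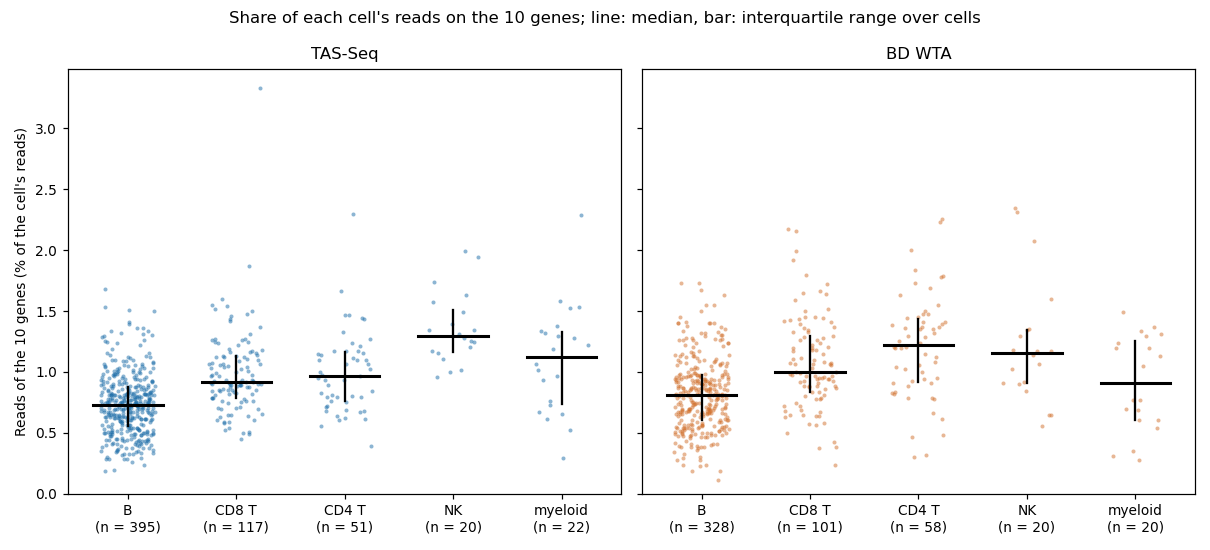
Percent of each cell's reads that lay on the 10 genes (vertical axis) in the 5 marker-defined classes (horizontal axis), TAS-Seq on the left and BD WTA on the right. Each point is a cell, the line is the median and the bar the interquartile range over cells. The NK-like median (1.29% and 1.15%) is above the B-like median (0.730% and 0.812%) in both libraries, single cells overlap in both, and in BD WTA the CD4 T-like median (1.22%) is the highest.

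B2m, the subunit common to all class I molecules, was lowest in B-like cells of both libraries. Its level was 3129.7 CPM in B-like, 4638 in CD8 T-like, 4475 in CD4 T-like, 5962 in NK-like and 5902 in myeloid-like TAS-Seq cells. The BD WTA levels, in the same order of classes, were 2482, 3705, 4134, 4325 and 3642 CPM. All 4 other classes were thus above B-like cells in both libraries, by log2 differences of 0.57 and 0.58 (CD8 T-like), 0.52 and 0.74 (CD4 T-like), 0.93 and 0.80 (NK-like) and 0.92 and 0.55 (myeloid-like), and these directions held under every alternative setting. None reached 2-fold. Which class was highest depended on the scaling. NK-like cells were first in TAS-Seq under 6 of 9 alternatives and in BD WTA under 6 of 8, and with TMM factors (trimmed mean of M values) myeloid-like TAS-Seq cells (5574 CPM) and CD8 T-like BD WTA cells (4310 CPM) were first. NK-like and myeloid-like cells of TAS-Seq had overlapping intervals (5820 to 6107 and 5772 to 6034 CPM), as had CD8 T-like and myeloid-like BD WTA cells (3652 to 3758 and 3535 to 3751 CPM), and NK-like and CD4 T-like BD WTA cells (4188.5 to 4466 and 4057 to 4212 CPM), so those neighbours were not separated. At 20000 reads per cell, B2m had a read in 707 of 707 TAS-Seq cells and in 639 of 645 BD WTA cells (99.1%).

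H2-K1, which encodes the K heavy chain, had TAS-Seq levels of 1726 CPM in B-like, 2254 in CD8 T-like, 2352 in CD4 T-like, 3686 in NK-like and 2237 in myeloid-like cells. In BD WTA they were 2483, 3273, 3581, 3698 and 2208 CPM. NK-like cells were highest in both libraries, under all 9 alternatives in TAS-Seq but 5 of 8 in BD WTA, where CD8 T-like cells led with TMM factors (3807 CPM). CD8 and CD4 T-like cells were above B-like cells in both. Myeloid-like cells were above B-like cells in TAS-Seq and below them in BD WTA. In BD WTA the intervals of NK-like and CD4 T-like cells overlapped (3571 to 3828 and 3509 to 3653 CPM). In TAS-Seq the myeloid-like interval (2157 to 2319 CPM) overlapped those of CD8 T-like (2221 to 2287 CPM) and CD4 T-like cells (2294 to 2410 CPM).

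H2-D1, which encodes the D heavy chain, ordered the NK-like, T-like and B-like classes as H2-K1 did, with smaller differences between B-like and T-like cells. Myeloid-like cells ranked higher for H2-D1 than for H2-K1 in both libraries. TAS-Seq levels were 1392 CPM in B-like, 1427 in CD8 T-like, 1584 in CD4 T-like, 2676 in NK-like and 2173 in myeloid-like cells. BD WTA levels were 1989.5, 2158, 2729, 2917 and 2671 CPM. B-like cells were lowest in both libraries and under every alternative. NK-like cells were highest in both, under all 9 alternatives in TAS-Seq but 4 of 8 in BD WTA, where myeloid-like cells led by the mean of per-cell CPM (3032 CPM). The log2 difference between CD8 T-like and B-like cells was 0.04 and 0.12, and in TAS-Seq the intervals of those neighbours overlapped (1400.4 to 1453 and 1376 to 1409 CPM). CD4 T-like and myeloid-like BD WTA cells were not separated either (2667 to 2793 and 2579.6 to 2765 CPM). Both classical heavy chains had reads in 96.7% to 99.2% of all cells at 20000 reads per cell.

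**Figure D2:**
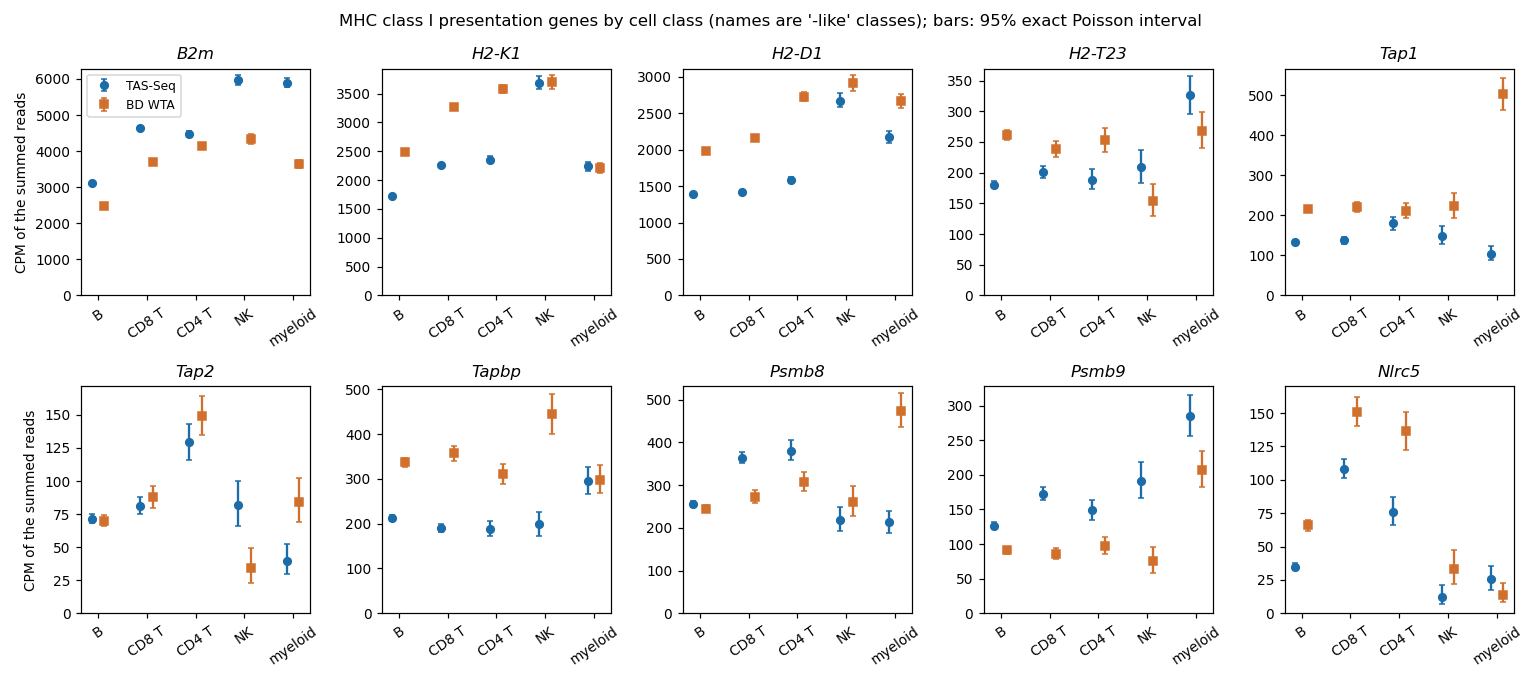
CPM of the summed reads (vertical axis, from 0) of each of the 10 genes in the 5 classes (horizontal axis). Circles are TAS-Seq, squares BD WTA, and bars the 95% exact Poisson interval, which covers counting error only. On this scale B2m, H2-K1 and H2-D1 are highest in NK-like cells of both libraries, which for B2m in both libraries and for H2-K1 and H2-D1 in BD WTA depends on the scaling. Nlrc5 is highest in CD8 T-like cells (108 and 151 CPM).

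H2-T23 encodes Qa-1, the ligand of the NKG2A receptor pair on NK and CD8 T cells. Its TAS-Seq levels were 181 CPM in B-like, 201 in CD8 T-like, 188 in CD4 T-like, 209 in NK-like and 326 in myeloid-like cells. In BD WTA they were 261, 239, 253, 154 and 269 CPM. Myeloid-like cells were highest in both, under 7 of 9 alternatives in TAS-Seq and 3 of 8 in BD WTA, and in BD WTA their interval (240.2 to 299 CPM) overlapped that of B-like cells (253 to 269 CPM). Each of the other neighbours in the TAS-Seq order had overlapping intervals. NK-like cells were second in TAS-Seq and last in BD WTA. In myeloid-like cells 5 cells held 72.3% and 76.6% of the reads, and their log2 difference from B-like cells (0.85 and 0.04) went as low as -1.19 and -1.13 over the settings.

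Tap1 and Tap2 encode the paired chains of the peptide pump. They ranked the classes alike in TAS-Seq but not in BD WTA. Tap1 had 132 CPM in B-like, 137 in CD8 T-like, 180.1 in CD4 T-like, 149 in NK-like and 104 in myeloid-like TAS-Seq cells. Its BD WTA levels were 217, 221, 211, 223 and 502 CPM. Myeloid-like cells were thus lowest in 1 library and highest in the other, and 5 cells held 97.1% and 94.4% of their Tap1 reads. The other 4 BD WTA classes lay within each other's intervals.

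Tap2 was highest in CD4 T-like cells of both libraries. TAS-Seq levels were 71.6 CPM in B-like, 81.5 in CD8 T-like, 129 in CD4 T-like, 81.8 in NK-like and 39.9 in myeloid-like cells. BD WTA levels were 70.2, 87.7, 149, 34.4 and 84.3 CPM. CD4 T-like cells exceeded B-like cells by log2 differences of 0.85 and 1.09, but 5 cells held 70.3% and 65.2% of their Tap2 reads. Without those cells, and without the top 5 B-like cells, the TAS-Seq difference lay below 0 at -0.43, and the BD WTA difference was 0.06. The 5 cells are a larger part of the 51 and 58 CD4 T-like cells than of the B-like cells, which lowers this difference. The last places went to myeloid-like cells in TAS-Seq and NK-like cells in BD WTA, the latter on 30 reads in 3 cells.

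Tapbp, the tapasin gene, varied little between the classes, its highest level being 1.57 times the lowest in TAS-Seq and 1.49 times in BD WTA. TAS-Seq levels were 213 CPM in B-like, 190.4 in CD8 T-like, 188 in CD4 T-like, 198 in NK-like and 295 in myeloid-like cells. BD WTA levels were 337, 357, 310.5, 444 and 298 CPM. The top class was myeloid-like in TAS-Seq and NK-like in BD WTA, and myeloid-like cells were last in BD WTA. The 3 lowest TAS-Seq classes had overlapping intervals.

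Psmb8, the chymotrypsin-like subunit that replaces Psmb5, had 256 CPM in B-like, 364 in CD8 T-like, 381 in CD4 T-like, 219.5 in NK-like and 213 in myeloid-like TAS-Seq cells. In BD WTA the levels were 245, 273, 308, 262 and 474 CPM. Both T-like classes were above B-like cells in both libraries, by 0.51 and 0.16 (CD8) and 0.58 and 0.33 (CD4) on the log2 scale, the last of these reaching -0.03 at its lowest over the settings. Myeloid-like cells were last in TAS-Seq and first in BD WTA, where 5 cells held 89.2% of the reads.

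Psmb9, which replaces Psmb6, was highest in myeloid-like cells of both libraries. It had 127 CPM in B-like, 172 in CD8 T-like, 149 in CD4 T-like, 191 in NK-like and 285 in myeloid-like TAS-Seq cells. In BD WTA it had 90.8, 85.7, 97.1, 75.7 and 207 CPM. The log2 difference between myeloid-like and B-like cells was 1.17 and 1.19, past 2-fold in both. It rested on few cells. Psmb9 had a read in 11 of 22 and 9 of 20 myeloid-like cells at 20000 reads per cell, and 5 cells held 69.0% and 91.2% of the reads. Without the top 5 cells of each class the difference was 0.38 in TAS-Seq and -1.14 in BD WTA. That setting takes 5 of 22 and 5 of 20 myeloid-like cells but 5 of 395 and 5 of 328 B-like cells. A lower difference is therefore built into it. The 4 other BD WTA classes had overlapping intervals.

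Nlrc5 had the widest spread between classes of any member, with a highest level 8.70 times the lowest in TAS-Seq and 10.8 times in BD WTA. Its TAS-Seq levels were 34.9 CPM in B-like (interval 32.4 to 37.6), 108 in CD8 T-like (101 to 116), 76.1 in CD4 T-like (66.1 to 87.2), 12.4 in NK-like (6.80 to 20.9) and 25.6 in myeloid-like cells (17.7 to 35.8). Its BD WTA levels were 65.9 (61.8 to 70.1), 151 (141 to 162), 136 (123 to 151), 33.3 (22.3 to 47.8) and 14.05 CPM (8.18 to 22.5). Both T-like classes were above B-like cells, and B-like cells above NK-like and myeloid-like cells, in both libraries, although the intervals of B-like and myeloid-like TAS-Seq cells overlapped. The intervals of CD8 and CD4 T-like cells overlapped in BD WTA but not in TAS-Seq, and those of NK-like and myeloid-like cells overlapped in both libraries. The intervals cover counting error only, and in CD4 T-like TAS-Seq cells 5 cells held 67.8% of the Nlrc5 reads. The difference between CD8 and CD4 T-like cells changed sign over the settings in both libraries, so these classes were not separated. The share of cells with a read was ordered alike among the lymphocytes. At 20000 reads per cell the TAS-Seq shares with an Nlrc5 read were 37.6% in CD8 T-like (28.8% to 47.0%, exact binomial), 23.5% in CD4 T-like (12.8% to 37.5%) and 11.1% in B-like cells (8.21% to 14.7%). The BD WTA shares were 35.6% (26.4% to 45.8%), 19.0% (9.87% to 31.4%) and 11.6% (8.33% to 15.6%). The CD8 T-like and B-like intervals did not overlap in either library. With at least 5 reads asked for, the shares were 16.2% and 17.8% in CD8 T-like, 13.7% and 15.5% in CD4 T-like, and 5.82% and 7.32% in B-like cells.

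The low Nlrc5 level of NK-like and myeloid-like cells rested on few reads, with 14 and 29 reads in NK-like and 34 and 17 in myeloid-like cells, in at most 4 cells of a class. NK-like cells, whose B2m, H2-K1 and H2-D1 levels were above those of B-like cells under every setting, had the lowest Nlrc5 level in TAS-Seq (under 6 of 9 alternatives) and the second lowest in BD WTA. When classes were taken from clusters instead, the TAS-Seq log2 difference between NK-like and B-like cells moved from -1.49 to 1.01. In BD WTA it stayed below 0 under each setting run. The TAS-Seq NK-like cluster is not the same set of cells, as it held 35 cells, against 20 by markers, with 1 T-cell marker raised. A TAS-Seq cluster of 84 cells with 6 B-cell markers raised was left unnamed, so it was not counted as B-like. The part of these changes in the move was not tested.

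The members called between classes were then set beside the share of all genes called, from which 1 of 10 is not far. Between CD8 T-like and B-like cells 1 of 10 members, Nlrc5, was at least 2-fold different in the same direction in both libraries, at log2 1.63 and 1.20, against 17.8% of the 8809 genes tested (4.60% higher and 13.2% lower). The median over the members was 0.29 and 0.14, against -0.16 and -0.14 over all genes, and 7 members were higher in CD8 T-like cells in both libraries, 0 lower and 3 of opposite sign. Nlrc5 held 2-fold under every alternative, from 1.10 to 1.77. Directions held in both libraries and every setting for B2m, H2-K1, H2-D1, Psmb8 and Nlrc5.

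Between CD4 T-like and B-like cells 1 of 10 was called (Nlrc5, log2 1.12 and 1.05), against 17.1% of genes (4.58% higher and 12.5% lower). The median was 0.45 and 0.39 over the members and -0.05 and -0.06 over all genes, with 7 members higher and 1 lower in both libraries. The Nlrc5 call was lost under 5 of the settings. In these classes 5 cells held 67.8% and 68.8% of its reads, and without such cells the differences were 0.09 and 0.13. Leaving out 5 cells takes a larger part of the CD4 T-like than of the B-like cells, which lowers these differences.

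Between NK-like and B-like cells 0 of 10 were called, against 22.6% of genes (7.35% higher and 15.2% lower). No test stands behind this count, which uses fold alone. H2-K1 passed 2-fold in TAS-Seq (1.09) and not in BD WTA (0.57), and H2-D1 stood at 0.94 and 0.55. TMM factors lowered every NK-like over B-like difference by 0.25 in TAS-Seq and 0.44 in BD WTA, after which B2m, H2-K1 and H2-D1 were still higher in NK-like cells of both libraries. Of the other members 5 had opposite signs in the libraries.

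Between myeloid-like and B-like cells 1 of 10 was called (Psmb9), against 25.3% of genes (7.40% higher and 17.9% lower), with 4 members higher and 1, Nlrc5, lower in both libraries. B2m and H2-D1 were higher and Nlrc5 lower under every setting. Between CD8 and CD4 T-like cells 0 of 10 were called, against 4.44% of genes, and no member kept its direction in both libraries under every setting. The largest difference there in each library was that of Tap2, at -0.67 and -0.77. Nlrc5 stood at 0.51 and 0.15. T-like cells of the spleens had been exposed to the antibody against CD4, so the 51 and 58 CD4 T-like cells are those present after treatment.

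The lower members were also compared by how many cells held a read. In B-like cells, at 20000 reads per cell, H2-T23 was found in 64.8% of TAS-Seq and 61.6% of BD WTA cells, Tapbp in 55.2% and 41.2%, and Psmb8 in 52.9% and 39.6%. Tap1 was found in 38.7% and 26.8%, Psmb9 in 34.2% and 15.9%, Tap2 in 22.03% and 13.4%, and Nlrc5 in 11.1% and 11.6%. All but Nlrc5 had the larger share in TAS-Seq, and the intervals of H2-T23 overlapped. The median over the 10 members and the cells of the 5 classes was 56.6% in TAS-Seq and 43.9% in BD WTA, and 32.5% and 34.4% when at least 5 reads were asked for, so the order turned. No spleen class should lack class I genes, so stray reads were gauged with B-cell markers in CD8 T-like cells. At least 1 read was found in 16.2% (Cd22) to 47.9% (Cd79a) of CD8 T-like TAS-Seq cells for the 6 markers, whose overall levels were 419 to 1651 CPM. In CD8 T-like BD WTA cells the shares ran from 0 of 101 cells (up to 3.59% by the exact interval; Cd79b and Ms4a1) to 5.94% (Cd79a). At 5 reads they were at most 2.56% and 0.990%. Cells with several B-cell markers had been left out of the class, which lowers these shares. A TAS-Seq share at or below them, such as that of Tap2 in B-like cells or that of Nlrc5 in each class, CD8 T-like cells (37.6%, the share of Ighd) included, is therefore not read as expression by itself, although these members have lower overall levels than the markers. Single reads outside the expected class were thus more frequent in TAS-Seq, and their part in the larger TAS-Seq shares was not tested. Median depth before thinning was 43261 (TAS-Seq) and 37325 (BD WTA) reads in B-like cells, and 60165 and 46143 in CD8 T-like cells.

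**Figure D3:**
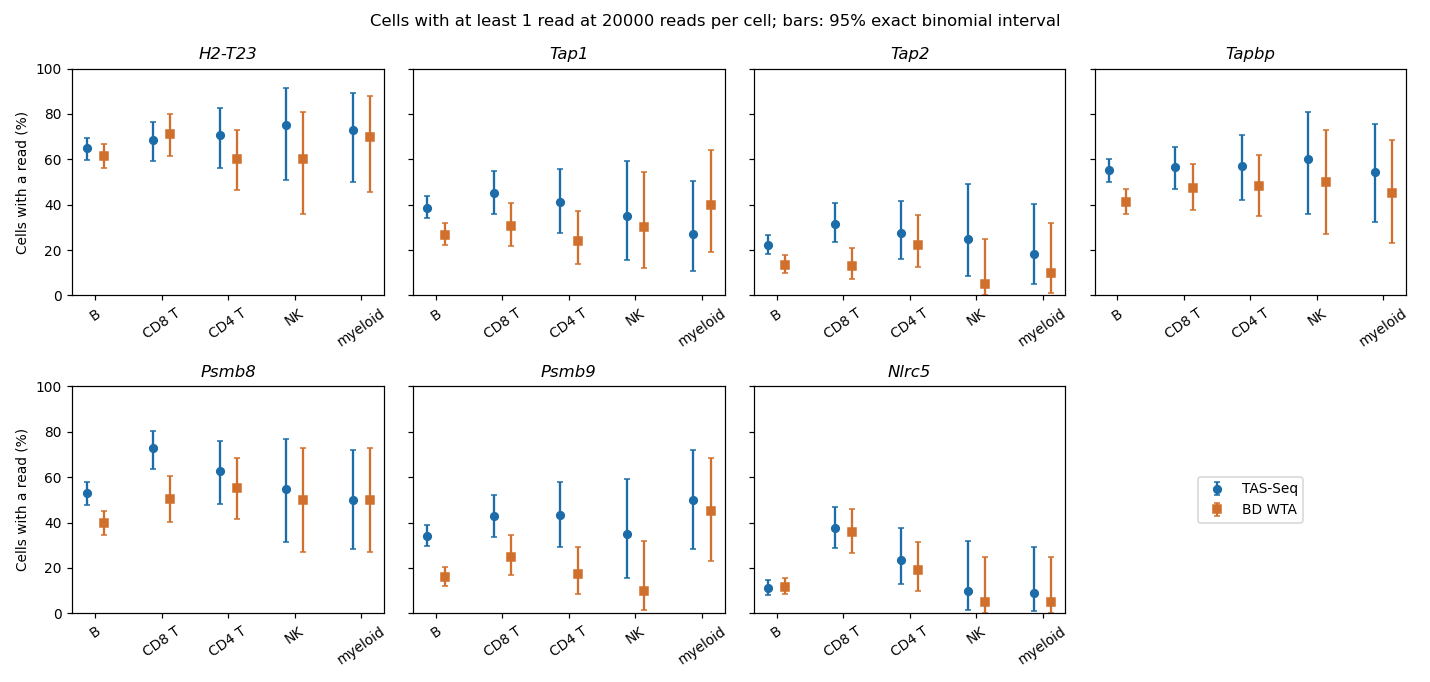
Percent of cells with at least 1 read at 20000 reads per cell (vertical axis, 0 to 100) for the 7 lower members in the 5 classes (horizontal axis). Circles are TAS-Seq, squares BD WTA, and bars the 95% exact binomial interval, which treats cells as independent. Nlrc5 stands at 37.6% and 35.6% in CD8 T-like cells and at 11.1% and 11.6% in B-like cells, and intervals in the NK-like and myeloid-like classes are wide.

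The design itself asked how the amplification methods differ. Over all filtered cells, 0 of 10 members differed 2-fold between TAS-Seq and BD WTA, against 15.9% of the 10028 genes tested (26.1% with genes from 1 CPM, and 34.6% with any gene that had a read in each library). On the log2 scale, the median ratio (TAS-Seq divided by BD WTA) was -0.42 over the members and 0.10 over all genes. B2m had 3928 CPM in TAS-Seq and 3165 CPM in BD WTA, a log2 ratio of 0.31. Psmb9 (149 and 102 CPM, 0.55), Psmb8 (294 and 269.8 CPM, 0.13) and Tap2 (88.6 and 81.3 CPM, 0.12) were also higher in TAS-Seq. The other 6 were lower in TAS-Seq. These were Tap1 (134 and 231 CPM, -0.78), Tapbp (210.3 and 341 CPM, -0.70), H2-D1 (1511 and 2226 CPM, -0.56), Nlrc5 (63.1 and 92.0 CPM, -0.54), H2-K1 (2117 and 2951 CPM, -0.48) and H2-T23 (194 and 247 CPM, -0.35). The sign of each of the 10 was the same in all 5 alternatives. The light chain lay above 0 and the 3 heavy chains below it.

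Within the classes these ratios varied for abundant members too. In B-like, CD8 T-like and CD4 T-like cells H2-K1 lay between -0.61 and -0.52, and in NK-like and myeloid-like cells it was near 0 (-0.0047 and 0.02). B2m was higher in TAS-Seq in each class, from 0.11 in CD4 T-like to 0.70 in myeloid-like cells. In B-like cells 0 of 10 members reached 2-fold, against 20.2% of genes. Members that passed the filter on level and on cells with a read and reached 2-fold were Psmb9 in CD8 T-like cells (1.01, against 20.1% of genes higher), Tapbp in NK-like cells (-1.16, against 10.4% lower) and Psmb8 in myeloid-like cells (-1.15, against 11.4% lower). In CD4 T-like cells there was none, against 34.2%. In NK-like and myeloid-like cells 6 and 7 of the members passed that filter, the others having reads in too few cells. Of those others, Tap2 (1.25), Psmb9 (1.34) and Nlrc5 (-1.42) in NK-like cells were past 2-fold, as were Tap1 (-2.27) and Tap2 (-1.08) in myeloid-like cells.

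**Figure D4:**
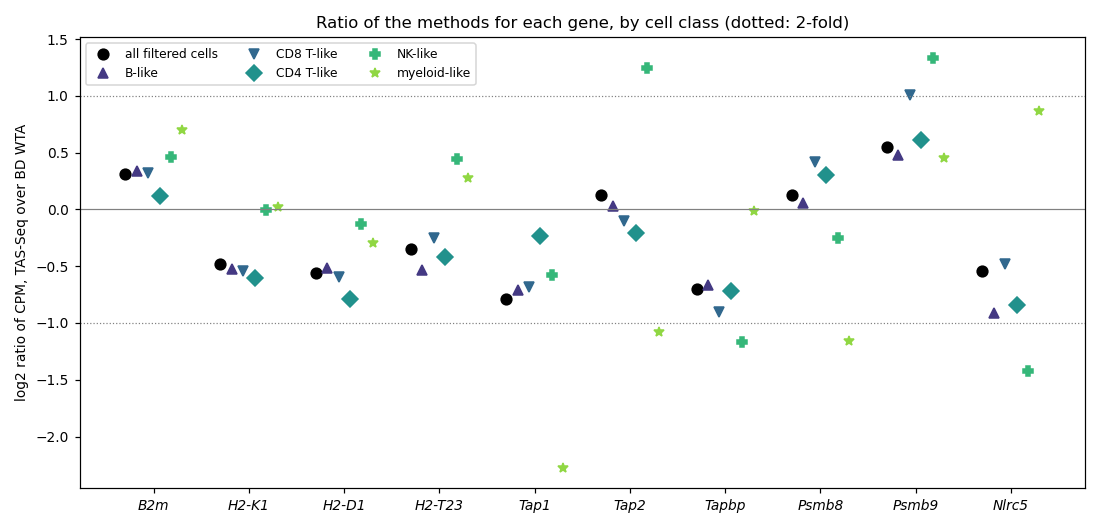
log2 ratio of CPM, TAS-Seq over BD WTA (vertical axis), for each gene (horizontal axis) over all filtered cells (black circles) and in each class (coloured symbols). Dotted lines mark 2-fold. No black circle lies past them, and the class values of Tap1, Tap2 and Nlrc5 scatter most, in classes of about 20 cells.

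Other genes of the pathway were taken from 5 lists of 30 genes in all. Between CD8 T-like and B-like cells 26 could be compared, and 0 were 2-fold higher and 3 lower in both libraries, beside 4.60% and 13.2% of all genes. These were Rfx5, a subunit of the RFX complex at MHC promoters (45.3 CPM in B-like and 7.11 in CD8 T-like TAS-Seq cells, 47.0 and 14.8 in BD WTA), and the non-classical heavy chains H2-M3 (log2 -2.33 and -1.12) and H2-T24 (-2.71 and -2.40). H2-T24 had 17 and 18 reads in CD8 T-like cells and passed the filter on level through B-like cells alone. In CD8 T-like cells Rfx5 was thus lower and Nlrc5 higher than in B-like cells. In CD4 T-like cells 1 of 27 was called (12.5% of all genes were lower), Irf2, an interferon regulatory factor, at -1.37 and -1.15 against B-like cells.

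Of the pathway genes in NK-like cells 2 of 25 were called, both lower than in B-like cells, beside 15.2% of all genes. They were Psme2, a subunit of the proteasome activator PA28 (-1.40 and -1.53), and Rfx5 (19.6 against 45.3 CPM in TAS-Seq, and 1 read in NK-like against 700 in B-like BD WTA cells). The Psme2 transcript shares 66.2% of its words with another gene, Psme2b, so its level is uncertain too. In myeloid-like cells 2 of 25 were higher and 3 lower, beside 7.40% and 17.9% of all genes, so these counts too are near the background. The higher were the heavy chain gene H2-Q10 (3.66 and 4.99) and Erap1, the aminopeptidase that trims peptides in the endoplasmic reticulum (119.7 against 53.0 CPM in TAS-Seq and 141 against 43.2 in BD WTA). The lower were Cd1d1, which presents lipids (5 TAS-Seq reads and 0 BD WTA reads in myeloid-like cells), Rfx5 (17 and 0 reads) and H2-T10, whose transcript shares 61.4% of its words with other genes. In BD WTA, Cd1d1 and Rfx5 passed the filter on level through B-like cells alone, as did Rfx5 in the NK-like comparison. Sums under 3 reads were set to 3, so that floor sets the size of these BD WTA differences. Between CD8 and CD4 T-like cells 0 of 25 were called. The 3 constitutive catalytic subunits gave no call in any comparison between classes, nor did the loading and trimming list beyond Erap1 or the immunoproteasome and activator list beyond Psme2. Between the methods Psmb6, H2-Q1 and H2-Q2, named here after their values were seen, were at least 2-fold higher in TAS-Seq. Psmb6, a constitutive subunit, had 108 against 49.6 CPM (log2 1.13). The heavy chain genes H2-Q1 (10.2 against 3.02 CPM, 1.76) and H2-Q2 (1.37 against 0.286 CPM, 2.26) had low levels. Of all genes tested from 10 CPM, 15.9% were at least 2-fold different between the methods in either direction.

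Over cells of 1 class the members hardly varied together. At 20000 reads per cell the 45 pairs had a median Spearman rho of 0.01 in TAS-Seq and 0.04 in BD WTA over B-like cells, and 0.07 and 0.005 over CD8 T-like cells. Over CD8 T-like cells 35 and 25 of the 45 pairs were above 0. There the H2-K1 and H2-D1 pair had a rho of 0.28 and 0.25. B2m had 0.13 and 0.32 with H2-K1, and 0.23 and 0.17 with H2-D1. H2-K1 and H2-D1 share sequence words, and the part of this in their rho was not tested. The 5 genes most like the summed members over B-like cells of both libraries, out of 560 compared, were H2-Q7, Ly6e, H2-Q4, Gm49980 and Il2rg. Their smaller rho was 0.08 to 0.12, which in sparse counts is no finding.

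Marker lists were checked in every class. B-cell markers summed to 9837 and 10285 CPM in B-like cells and to 21.1 to 222 CPM elsewhere, and NK markers to 13910 and 10468 CPM in NK-like cells and to at most 89.3 CPM elsewhere. T-cell markers summed to 3050 to 3977 CPM in the T-like classes and to at most 194 CPM elsewhere. Cd8a and Cd8b1 summed to 2131 and 2561 CPM in CD8 T-like cells, 388 and 330 CPM in myeloid-like cells and at most 17.2 CPM elsewhere. Cd4 stood at 652 and 840 CPM in CD4 T-like cells, 256 and 102 CPM in myeloid-like cells and at most 13.3 CPM elsewhere. Myeloid markers summed to 39937 and 31539 CPM in myeloid-like cells, 882 and 633 CPM in NK-like cells and at most 326 CPM elsewhere. Of the remaining lists, plasma-cell genes were highest in B-like cells (362 and 897 CPM) and erythroid genes in myeloid-like BD WTA cells (826 CPM, with reads in 1 cell). Stromal genes lay between 48.8 and 145 CPM in every class, and megakaryocyte and basophil genes at 10.7 CPM or less. Their part in the members' values was not tested.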

How the data were processed

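The deposited tables hold raw read counts for each gene in each barcode, which the authors made without unique molecular identifiers and did not normalize. The submitters' processing notes name cutadapt 2.10, Bowtie2 2.4.2 and R 3.6.3. By the study's methods, reads were mapped on the forward strand to Ensembl transcripts of GRCm38 and barcodes above the inflection point of the ranked totals were kept. Whether background reads were subtracted in these tables is not given in the sources used here. Counting reads lets amplification set a value's size, and mapping to transcripts can divide reads among heavy-chain genes that share sequence.

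Barcodes under 500 genes, or with a mitochondrial fraction above 0.25, were dropped, and the rest were thinned with a fixed seed to 20000 reads, which 25 TAS-Seq and 63 BD WTA cells did not reach. A class needed at least 5 reads of at least 2 of its 6 markers (myeloid-like, 3 of 19, a minimum set after marker counts were seen) and no other class, and T-like cells were divided by Cd4 and by Cd8a or Cd8b1. Scrublet in scanpy 1.11.5 called 3 and 4 doublets, too few to count on (under 1 in 100 cells), so they were kept. Levels are CPM of summed, unthinned reads. Genes with at least 10 CPM in either of the 2 groups compared were tested for the background shares, over the whole table. Reads in at least 10 cells were also needed, in 1 group between the methods and in both groups together between classes. The lower group could thus hold no reads, and sums under 3 reads were set to 3 for the fold. Positions came from GENCODE M21. The summing and fold steps were run on simulated cells drawn from the pooled B-like profile of each library, and thinning was checked on cells of the data. Those simulated cells do not differ in expression beyond counting error, unlike the cells here. Class, cluster and doublet calls were not simulated. Alternatives were the mean of per-cell CPM, thinned reads, TMM factors (edgeR 4.0.16), leaving out the 5 cells with most reads of a member, leaving out doublets, classes from clusters (resolution 2), and other marker minimums. The 10 members, the pathway and marker lists were chosen with earlier results of these data known. Genes named besides the members are list genes at least 2-fold different in the same direction in both libraries, up to 5 per comparison, and the 5 genes most like the members over B-like cells.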

Additional observations from a re-analysis of the deposited data

Results flagged for a closer look

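For 4 differences between classes the libraries pointed in opposite directions and were more than 2-fold apart. The difference between libraries was not tested, since each method has 1 library. Tap2 in NK-like over B-like cells had a log2 ratio of 0.19 in TAS-Seq and -1.03 in BD WTA, on 92 and 30 NK-like reads. In myeloid-like over B-like cells, Tap1 had -0.35 and 1.21, Tap2 had -0.84 and 0.26, and Psmb8 had -0.26 and 0.95. In these classes of 20 or 22 cells, 5 cells held 78.4% or more of the reads of each of these genes.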

How the results depend on the processing

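No paired analysis was possible because there is 1 library per method and nothing was tested. Counts of members called in both libraries changed as follows, and where a cause is not plain from the setting it was not tested. Between CD4 T-like and B-like cells the count went from 1 to 0 with the mean of per-cell CPM, thinned reads, TMM factors, without the 5 cells with most reads, and with markers at 2 reads. Between NK-like and B-like cells it went from 0 to 1 (Nlrc5) with the mean of per-cell CPM and TMM factors, and to 5 (Tap1, Tap2, Psmb8, Psmb9 and Nlrc5, all lower) without the 5 cells. Between myeloid-like and B-like cells it went from 1 to 0 with the mean of per-cell CPM, thinned reads and TMM factors, to 4 (Tap1, Tap2, Psmb8 and Nlrc5) without the 5 cells, and to 2 (Psmb9 and Nlrc5) with markers at 2 reads. With classes from clusters it stayed at 1, but the member was Nlrc5 in place of Psmb9 (0.21 in TAS-Seq). Between CD8 and CD4 T-like cells it went from 0 to 1 (Nlrc5) without the 5 cells. Leaving out 5 cells takes them from NK-like and myeloid-like classes of 20 to 22. The 5 cells are a larger part of a small class than of a large one. Lower values of the smaller class are thus built into this setting. The median share of cells with a read was 32.5% (TAS-Seq) and 34.4% (BD WTA) at 5 reads, and in TAS-Seq 50.1% at 10000 reads and 64.1% without thinning. Of 210 alternatives to single ratios, 71 moved and 3 reversed. The reversed ones went from past 2-fold to past 2-fold the other way. They were Nlrc5 in NK-like over B-like TAS-Seq cells with classes from clusters (1.01), and Tap1 (-1.85) and Psmb9 (-1.14) in myeloid-like over B-like BD WTA cells without the 5 cells. Ratios under 2-fold changed sign too, such as Tap2 in CD4 T-like over B-like TAS-Seq cells (0.85 to -0.43). In myeloid-like over B-like cells so did H2-T23 in TAS-Seq (0.85 to -1.19) and Psmb8 in BD WTA (0.95 to -1.34). No BD WTA cluster was CD4 T-like, so clusters gave no value for its comparisons. A rule of 2 markers for every class, chosen after seeing the data, moved none of the counts. Of 56 alternatives to counts and shares, 38 stayed close and 18 moved. Lower level filters for the background left the count between the methods at 0.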

Other observations

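T-like cells without a call of Cd4, Cd8a or Cd8b1, 80 in TAS-Seq and 82 in BD WTA, entered no comparison. H2-K1 stood at 3041 and 3961 CPM in them, B2m at 4726 and 3788 CPM, and H2-D1 at 1642 and 2494 CPM. Nlrc5 had 121 and 159.6 CPM and was found in 20 of 80 and 19 of 82 of them at 20000 reads per cell. Tap2 had 174 CPM in TAS-Seq and 66.1 CPM in BD WTA, with reads in 41.3% and 17.1% of the cells.

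NK-like and myeloid-like values rest on 20 to 22 cells, and for Tap1, Tap2, Psmb9 and Nlrc5 on a few of these. Levels of H2-K1, H2-D1 and H2-T23 depend on how reads that fit several heavy-chain genes were assigned. RNA levels say nothing of class I protein on the cell surface, which was not measured.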
